A study of Homo sapiens with 6 samples.

Results

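The genes described here are 10 that encode proteins which bind microtubules or anchor the axonal membrane skeleton: MAP1A, MAP1B, MAP2, MAP4, MAP6, MAP7, DCX, DCLK1, ANK2 and ANK3. They were picked by symbol among the 27961 genes of the deposited counts, a choice made with earlier results of these data known, and all 10 had enough counts to be tested. The RNA came from SH-SY5Y cells, an established line of neuroblastoma with features of sympathetic neurons, that had received a hairpin by lentivirus and had been selected with puromycin. The 6 libraries formed 3 groups of 2: the TARDBP hairpin (TRCN0000016038), control hairpin 1 (SHC007) and control hairpin 2 (SHC016). The product of TARDBP is TDP-43, an RNA-binding protein whose clearance from neuronal nuclei is a hallmark of amyotrophic lateral sclerosis. All cells therefore carried a vector and a hairpin, and uninfected cells were not analysed here. TARDBP was targeted by 1 hairpin, so effects of lower TARDBP and other effects of that hairpin cannot be told apart.

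Microtubules are polymers of tubulin that give axons and dendrites their shape and serve as tracks for transport. Classical microtubule-associated proteins such as MAP1A, MAP1B, MAP2 and MAP4 bind along the lattice and stabilise or space it, and in neurons MAP2 is concentrated in dendrites. Doublecortin (DCX) and its relative doublecortin-like kinase (DCLK1) bind microtubules in migrating and growing neurons. Ankyrins tie membrane proteins to the spectrin skeleton beneath the membrane; ankyrin-G, the product of ANK3, organises the axon initial segment, and ankyrin-B, the product of ANK2, lies along the axon. MAP1B has a place in work on TDP-43, because the mRNA of its fruit fly counterpart, futsch, is bound by the fly protein.

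TDP-43 binds RNA at repeats of U and G, so the spliced transcripts were searched for the 6 letters TGTGTG in their DNA spelling, on the transcript strand with overlapping matches counted. The longest coding transcript of each gene in GENCODE release 29 (GRCh38) was used. DCX held 18 matches, 1.91 per kb, of which 17 lay in the 3′ UTR, and MAP6 held 5, 1.16 per kb, all in the 3′ UTR. ANK3 held 6 (0.356 per kb) and MAP1B 5 (0.415 per kb), and the other 6 genes held 1 to 3 each. Among 19652 protein-coding genes, 65.1% held at least 1 match, the median was 0.368 per kb, 5.25% reached the density of DCX and 13.1% that of MAP6. Longer transcripts hold a match more often. Among the 4400 genes with a longest transcript of at least 5000 bases, 91.8% held a match and the median was 0.470 per kb. The windows of 30 bases below are centred on the longest unbroken alternation of T and G, which is in capitals, and are shown because they are the longest such runs in the 10 genes, with MAP1B added for comparison. They lie in the 3′ UTR at chrX:111299984-111300013 (minus strand) for DCX, chr11:75604680-75604709 (minus strand) for MAP6, chr10:60029731-60029760 (minus strand) for ANK3 and chr5:72206286-72206315 (plus strand) for MAP1B, all in GRCh38.
DCX: ggtgcaTGTGTGTGTGTGTGTGTGcatctg
MAP6: ttccgtgtcGTGTGTGTGTGTGgccaaagc
ANK3: caccgagaaGTGTGTGTGTGTtcgctgctt
MAP1B: acgtgggtgagcGTGTGTGggggtactaga
The run was 18 bases in DCX, 13 in MAP6, 12 in ANK3 and 7 in MAP1B. Runs of at least 18 bases occurred in 2.21% of the protein-coding genes. Of the 4400 genes with a longest transcript of at least 5000 bases, 4.77% held a run of at least 20 bases. These counts describe sequence only, since binding was not measured, and introns, where TDP-43 also binds, were not searched.

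Levels are counts per 1000000 (CPM) scaled by edgeR's TMM factors, with n = 2 libraries per hairpin. Changes are given as log2FC, the log2 of the fold change, with the SE or the 95% interval of the fit. "Fell" and "rose" are used only where edgeR's quasi-likelihood test gave an adjusted p below 0.05 over all 17163 genes and repeat families tested. Library totals ran from 18605745 to 21698339 counts. TARDBP stood at 18.9 and 24.0 CPM with its hairpin, against 72.4 to 92.7 CPM in the 4 control libraries. Separate cultures are not named in the labels, so p-values cover only library-to-library spread, perhaps technical. Against the mean of both controls, 5 of the 10 genes fell and 1 rose, where 24.3% of all features tested fell and 23.9% rose, 48.2% in either direction. Their median log2FC was -0.38, against 0.04 over all features.

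The cells also differed between hairpins in markers of state. Summed proliferation markers (8 of 8 detected) stood at 81.2 to 81.7 CPM under the TARDBP hairpin, 160 to 244 under control hairpin 1 and 676 to 744 under control hairpin 2. Summed noradrenergic markers (12 of 12 detected, though TH, tyrosine hydroxylase, had 0 to 3 counts per library) stood at 1035 to 1171, 2101 to 2358 and 1558 to 1746 CPM. Of these markers, 7 of 8 and 9 of 11 tested fell against the mean of both controls. The noradrenergic marker GATA3 rose in that comparison (log2FC 0.35), though it was not called against control hairpin 1 (0.16). PCNA and GATA2 were not called against the mean of both controls. Fibroblast markers summed to 97.6 to 119, 1404 to 1411 and 1741 to 1844 CPM, with COL3A1 the main part of the control sums, and 5 of 6 fell while DCN rose. Mesenchymal neuroblastoma markers (PRRX1 at 0 throughout) summed to 2919 to 3182, 1743 to 2099 and 4575 to 4844 CPM. Of 9 tested, VIM and YAP1 rose and FN1 and COL1A1 fell, with 6 higher and 1 lower against control hairpin 1 and 2 higher and 4 lower against control hairpin 2. Glial, epithelial and immune markers summed to at most 19.3 CPM in any library, with KRT5 and CD3E at 0 in all 6. The part of these differences in the results below was not tested. In bulk RNA, fewer cells of a type and less RNA per cell cannot be told apart.

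**Figure D1:**
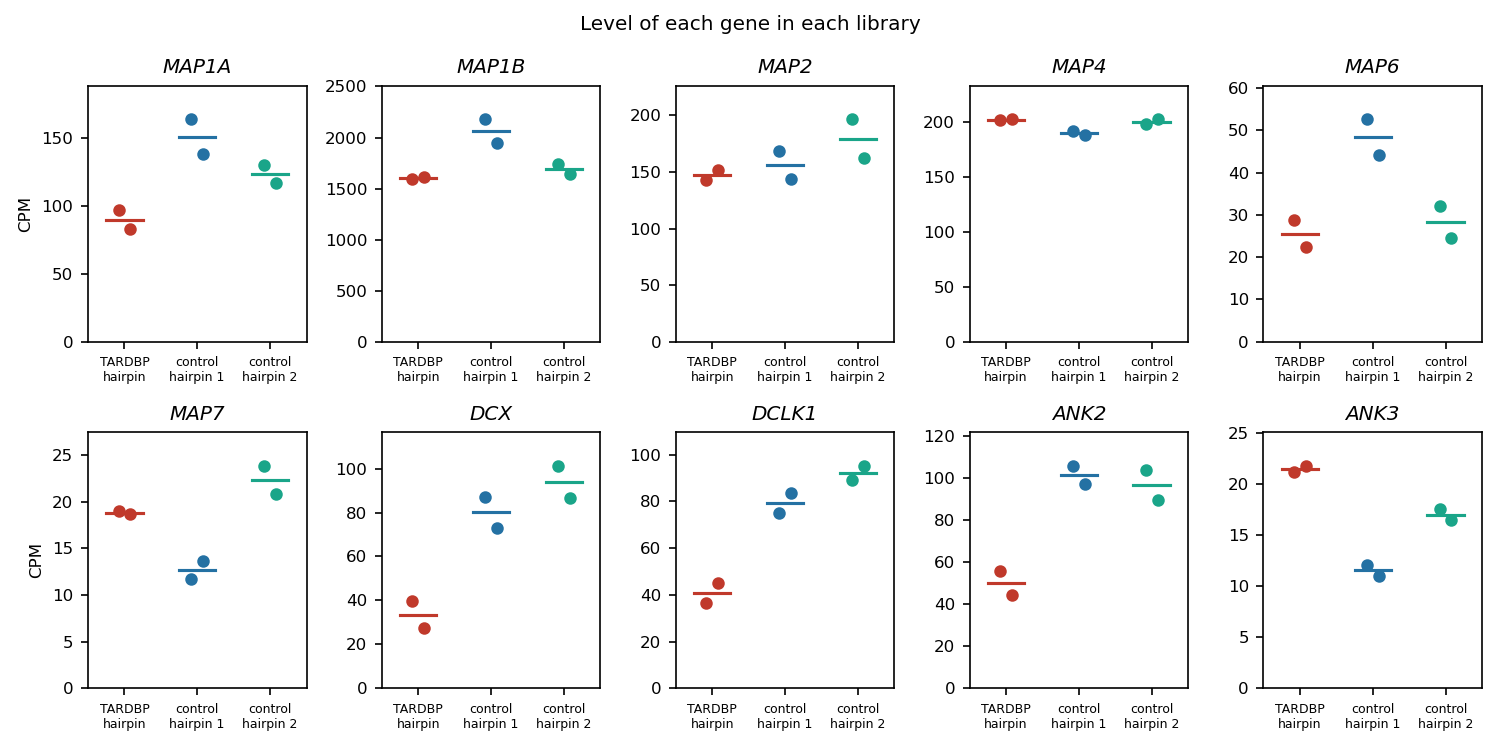
CPM of each of the 10 genes (vertical axes from 0, one scale per gene) in each library, as points, with the mean of the 2 libraries of a hairpin as a line. MAP1A, MAP1B, DCX, DCLK1 and ANK2 lie below all 4 control libraries under the TARDBP hairpin, MAP1B only narrowly, and ANK3 lies above all 4. The control hairpins lie apart from each other for MAP1A, MAP1B, MAP4, MAP6, MAP7, DCLK1 and ANK3.

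Of the 10 genes, the doublecortin pair fell furthest against the mean of both controls. DCX stood at 39.9 and 27.3 CPM under the TARDBP hairpin, 87.3 and 72.9 under control hairpin 1, and 101 and 86.5 under control hairpin 2. Both TARDBP hairpin libraries lay below every control library, and they differed from each other more than the libraries of either control did in proportion. DCX fell to 38.7% of the mean of both controls (log2FC -1.37, SE 0.162, adjusted p = 2.79e-04), with log2FC of -1.25 against control hairpin 1 and -1.48 against control hairpin 2. With a single knockdown library left in, its log2FC was -1.12 (replicate 1) or -1.67 (replicate 2), past the threshold in either case.

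DCLK1, whose protein joins doublecortin domains to a kinase domain, stood at 36.7 and 44.9 CPM under the TARDBP hairpin. It was at 74.9 and 83.6 CPM under control hairpin 1 and at 89.0 and 95.2 under control hairpin 2, so the groups were fully separate. It fell to 47.7% of the control mean (log2FC -1.07, SE 0.107, adjusted p = 1.20e-04), with log2FC of -0.96 and -1.18 against the control hairpins singly. Neither doublecortin gene was called between the control hairpins, where the 95% interval of the log2FC was -0.17 to 0.62 for DCX and -0.05 to 0.48 for DCLK1. The ratio of DCX to DCLK1 counts was 109 and 60.8 per 100 under the TARDBP hairpin and 87.2 to 117 in the controls. One knockdown library lay within the control range of this ratio and the other below it. Under each hairpin the ratio was higher in replicate 1 than in replicate 2.

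The ankyrin genes moved in opposite directions. ANK2 stood at 55.9 and 44.3 CPM under the TARDBP hairpin, against 106 and 97.0 under control hairpin 1 and 104 and 89.2 under control hairpin 2. The control hairpins overlapped each other, and both knockdown libraries lay well below them. ANK2 fell to 50.7% of the control mean (log2FC -0.98, SE 0.117, adjusted p = 2.91e-04), with log2FC of -1.02 against control hairpin 1 and -0.95 against control hairpin 2.

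ANK3 stood at 21.2 and 21.8 CPM under the TARDBP hairpin, 12.1 and 11.0 under control hairpin 1, and 17.6 and 16.5 under control hairpin 2. The 3 groups did not overlap, and control hairpin 2 lay in between. It rose 1.53-fold over the control mean (log2FC 0.62, SE 0.102, adjusted p = 0.00151) and by 0.89 over control hairpin 1 (adjusted p = 6.17e-04). Over control hairpin 2 it rose by 0.34 (95% interval 0.07 to 0.61, adjusted p = 0.0428), a call that was lost without any one of the 6 libraries, with adjusted p = 0.0537 to 0.251, and in DESeq2 (adjusted p = 0.158). ANK3 also rose by 0.56 from control hairpin 1 to control hairpin 2 (adjusted p = 0.00719), so its size of change depended on the control used. The call against the mean of both controls was lost when the 4 control libraries were treated as 1 group (adjusted p = 0.123). In GENCODE release 29, exons of ANK3 and of MAP7 overlap those of genes on the opposite strand, and whether the counting used strand is not stated.

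For every 100 counts of ANK2, ANK3 had 38.0 and 49.2 under the TARDBP hairpin, 11.5 and 11.4 under control hairpin 1, and 17.0 and 18.5 under control hairpin 2. Both knockdown ratios lay above every control ratio, and no scaling of libraries enters them. This follows from ANK3 lying above and ANK2 below every control library, so it is not a separate result. ANK2 and ANK3 are compared here across libraries only, since the ratio within a library also carries their lengths.

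**Figure D2:**
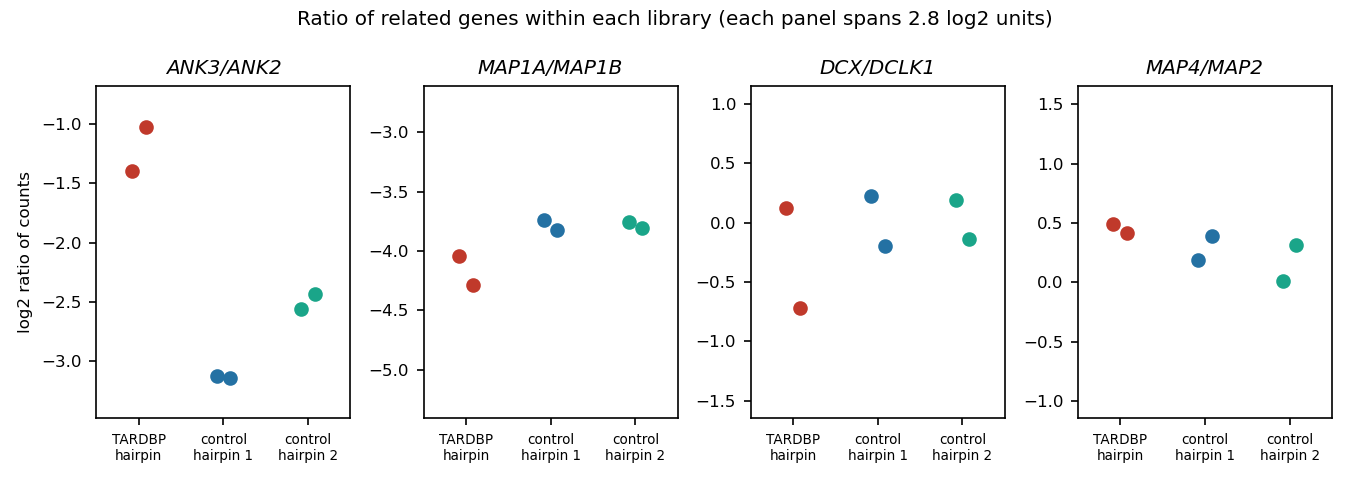
Log2 ratio of the counts of related genes (vertical axes, each spanning the same width) in each of the 6 libraries, by hairpin. ANK3 over ANK2 is highest in the 2 TARDBP hairpin libraries and MAP1A over MAP1B lowest there. MAP4 over MAP2 lies slightly above the controls, while DCX over DCLK1 overlaps between groups.

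Among the MAP1 genes, MAP1A fell, and MAP1B was called against control hairpin 1 only. MAP1A, which is most abundant in mature neurons, stood at 96.7 and 82.8 CPM under the TARDBP hairpin, 163 and 138 under control hairpin 1, and 130 and 117 under control hairpin 2. Each group lay apart from the others. It fell to 65.9% of the control mean (log2FC -0.60, SE 0.106, adjusted p = 0.00209), with log2FC of -0.75 against control hairpin 1 and -0.46 against control hairpin 2. The call against control hairpin 2 (adjusted p = 0.0132) had an adjusted p of 0.0937 without knockdown replicate 2, 0.0778 without control hairpin 2 replicate 1 and 0.0629 with upper quartile scaling. That against the control mean was lost with the controls as 1 group (adjusted p = 0.0556).

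MAP1B, prominent in growing axons, was by far the most abundant of the 10 and held 66.2 to 72.3% of their summed CPM. It stood at 1595 and 1612 CPM under the TARDBP hairpin, 2178 and 1945 under control hairpin 1, and 1745 and 1638 under control hairpin 2. The knockdown libraries lay below all 4 controls, but only narrowly below control hairpin 2. Against the mean of both controls the log2FC was -0.22 (95% interval -0.41 to -0.03) and missed the threshold (adjusted p = 0.0572). It was called in DESeq2 (log2FC -0.25, adjusted p = 0.0390), with DESeq2 size factors (0.0474), total counts (0.0462) or no filter on low counts (0.0372), and without control hairpin 1 replicate 2 (0.0354) or control hairpin 2 replicate 2 (0.0333). With upper quartile scaling the log2FC was -0.10 (adjusted p = 0.379). MAP1B was also not called with genes only (0.299), a stricter filter (0.0892), a replicate block (0.100) or the controls as 1 group (0.351, all adjusted p in edgeR). Nor was it called in the test against 1.5-fold. Without knockdown replicate 1 or 2 the log2FC was -0.22 or -0.23, not called. Without control hairpin 1 replicate 1 or control hairpin 2 replicate 1 it was -0.18 or -0.20, not called. MAP1B fell by 0.36 against control hairpin 1 (adjusted p = 0.0154). This call was lost when knockdown replicate 1 (0.0846), knockdown replicate 2 (0.0777) or control hairpin 1 replicate 1 (0.0847) was left out, with upper quartile scaling (0.0626) and when genes were fitted without repeat families (0.116, all adjusted p). Against control hairpin 2 its log2FC was -0.08 (95% interval -0.29 to 0.14). It was itself lower in control hairpin 2 than in control hairpin 1 (log2FC -0.29, adjusted p = 0.0402), a call lost without any one of 5 of the 6 libraries, control hairpin 1 replicate 2 being the exception (adjusted p = 0.0567 to 0.208). For every 100 counts of MAP1B, MAP1A had 6.06 and 5.13 under the TARDBP hairpin and 7.08 to 7.50 in the 4 controls.

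MAP2 and MAP4, which share a family of microtubule-binding repeats with tau, were not called in any of the 4 comparisons. MAP2 stood at 143 and 152 CPM under the TARDBP hairpin, 169 and 144 under control hairpin 1, and 197 and 163 under control hairpin 2. Knockdown and control hairpin 1 overlapped. Its log2FC against the control mean was -0.19 (95% interval -0.42 to 0.05). Against control hairpin 2, whose libraries lay above both knockdown libraries, the log2FC was -0.29 (95% interval -0.56 to -0.01, adjusted p = 0.0770), and -0.45 with adjusted p = 0.0333 without control hairpin 2 replicate 2. MAP4, which is expressed in most cell types, stood at 202 and 203 CPM under the TARDBP hairpin, 192 and 188 under control hairpin 1, and 199 and 203 under control hairpin 2. Its knockdown levels lay above control hairpin 1 and overlapped control hairpin 2. The log2FC against the control mean was 0.05 (95% interval -0.11 to 0.21), the narrowest interval of the 10. For every 100 counts of MAP2, MAP4 had 141 and 134 in the knockdown libraries and 101 to 131 in the controls, so these 2 ratios lay just above all 4 control ratios.

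MAP6 and MAP7 differed mainly by control. MAP6, the stable tubule only polypeptide (STOP) that protects microtubules from cold, stood at 28.8 and 22.3 CPM under the TARDBP hairpin and at 32.0 and 24.6 under control hairpin 2, which overlapped. Under control hairpin 1 it was at 52.6 and 44.2 CPM, above the other 4 libraries. MAP6 fell by 0.92 against control hairpin 1 (SE 0.170, adjusted p = 0.00295), while its log2FC against control hairpin 2 was -0.15 (95% interval -0.54 to 0.25). That difference between the comparisons is the difference between the control hairpins, tested as such (log2FC -0.77, adjusted p = 0.00701). It missed the threshold without control hairpin 1 replicate 1 (adjusted p = 0.0548) and without control hairpin 2 replicate 2 (adjusted p = 0.0607). Its fall against the mean of both controls (log2FC -0.53, adjusted p = 0.0188) was lost without knockdown replicate 2 (-0.36, adjusted p = 0.149), with upper quartile scaling (-0.41, adjusted p = 0.0518) and with the controls as 1 group (adjusted p = 0.255).

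MAP7, which recruits kinesin-1 to microtubules, stood at 19.0 and 18.6 CPM under the TARDBP hairpin, 11.7 and 13.6 under control hairpin 1, and 23.8 and 20.9 under control hairpin 2. The knockdown libraries lay between the controls without overlap. MAP7 rose by 0.57 over control hairpin 1 (SE 0.134, adjusted p = 0.00901; 0.46 and adjusted p = 0.0668 without control hairpin 1 replicate 1), and its log2FC against control hairpin 2 was -0.25 (95% interval -0.54 to 0.05). Between the control hairpins it was higher in control hairpin 2 (log2FC 0.82, adjusted p = 0.00177). Its log2FC of 0.16 against their mean (adjusted p = 0.266) averages over this gap.

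**Figure D3:**
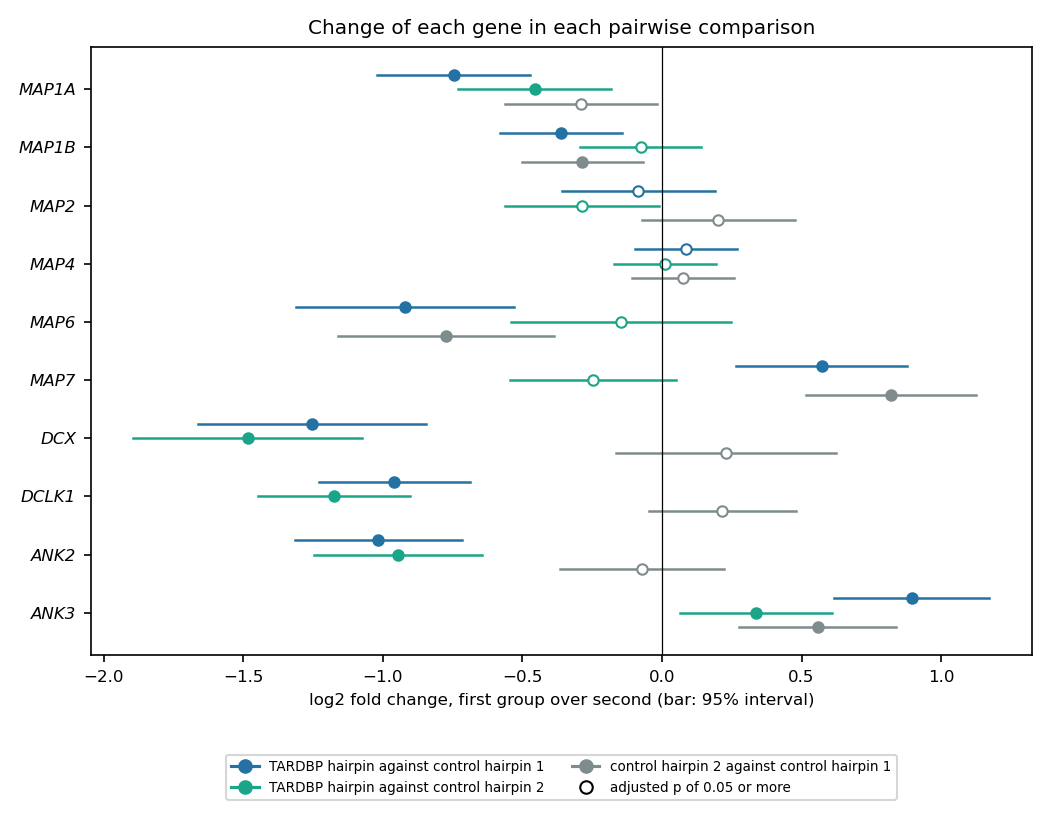
Log2FC of each gene (points) with the 95% interval of the fit (bars), filled where the adjusted p was below 0.05, in the comparisons of the TARDBP hairpin with each control hairpin and of control hairpin 2 against control hairpin 1. DCX, DCLK1, ANK2 and MAP1A lie below 0 against each control and ANK3 above, while MAP6 and MAP7 differ from control hairpin 1 but not detectably from control hairpin 2.

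Read by control, 6 of the 10 genes fell and 2 rose against control hairpin 1, where 21.8% of all features fell and 21.1% rose (42.9% either way). Against control hairpin 2, 4 fell and 1 rose, where 26.2% fell and 24.0% rose (50.2% either way). The comparisons share the TARDBP hairpin libraries. MAP1A, DCX, DCLK1 and ANK2 fell against each control, and 14.0% of all features did so. ANK3 was the single gene of the 10 to rise against each, as 10.6% of all features did. Between the control hairpins, MAP1B and MAP6 were lower and MAP7 and ANK3 higher in control hairpin 2, where 20.4% of all features were lower and 22.8% higher. That is 4 of 10 genes, close to the 43.2% of all features called between the controls. MAP1A, MAP1B, DCX, DCLK1 and ANK2 lay below all 4 control libraries in both knockdown libraries, as 22.8% of all features did, and ANK3 above all 4, as 23.3% did. Against control hairpin 1 alone, 6 genes lay wholly below (34.5% of all features) and 3 wholly above (37.4%). Against control hairpin 2 alone, 7 lay wholly below (37.8%) and 1 wholly above (38.5%). Between the controls, 3 genes were wholly lower in control hairpin 2 (37.8%) and 4 wholly higher (37.0%).

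Levels of different genes can be compared only per length, here as CPM per kb of merged exons in GENCODE release 29, which is not the annotation of the deposited counts. Under control hairpin 1, MAP1B stood at 171 ± 13.7 CPM per kb. MAP2 (15.2 ± 1.75), MAP1A (14.2 ± 1.71) and MAP4 (13.6 ± 0.200) followed, and these 3 did not differ beyond their spread. DCLK1 (8.26 ± 0.641), DCX (8.10 ± 1.03), MAP6 (7.70 ± 0.944) and ANK2 (6.82 ± 0.410) came next, each overlapping its neighbour. MAP7 (2.32 ± 0.252) and ANK3 (0.615 ± 0.0419) were lowest. Under control hairpin 2 MAP1B (141 ± 6.27) and ANK3 (0.905 ± 0.0411) again stood at the ends, and MAP6 (4.50 ± 0.835) lay beside MAP7 (4.10 ± 0.387). Between them, MAP2 (17.5 ± 2.34), MAP4 (14.3 ± 0.207) and MAP1A (11.6 ± 0.840) did not overlap, DCLK1 (9.59 ± 0.457) and DCX (9.50 ± 1.05) did, and ANK2 followed at 6.49 ± 0.689.

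Under the TARDBP hairpin MAP1B stood at 133 ± 0.996 CPM per kb, MAP4 at 14.4 ± 0.0488 and MAP2 at 14.4 ± 0.585. MAP1A was at 8.44 ± 0.928, apart from MAP2. DCLK1 (4.25 ± 0.604), MAP6 (4.07 ± 0.724), MAP7 (3.45 ± 0.0440), DCX (3.40 ± 0.903) and ANK2 (3.37 ± 0.550) followed, with no neighbours differing beyond their spread. ANK3 remained lowest, at 1.14 ± 0.0227. The places of MAP4 and MAP6 depend on the length used. Per kb of the longest coding transcript, MAP4 stood above MAP2 in every group, at 22.7 against 15.2 under the TARDBP hairpin, 21.3 against 16.1 under control hairpin 1 and 22.5 against 18.5 under control hairpin 2. On that scale MAP6 stood above DCLK1 under the TARDBP hairpin (5.90 against 5.09) and control hairpin 1 (11.2 against 9.90), and beside ANK2 under control hairpin 2 (6.54 against 6.80), where MAP7 was at 4.93.

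DCX, DCLK1 and ANK2, which fell the most, and ANK3, which rose, are each shown with a promoter window. The windows run from 250 bases before to 50 after the most upstream start in RefSeq (GRCh38.p14). They lie at chrX:111412143-111412442 (minus strand), chr13:36131890-36132189 (minus strand), chr4:112705372-112705671 (plus strand) and chr10:60733479-60733778 (minus strand). Capitals mark matches on either strand to a TATA box (TATAAA), a GC box (GGGCGG), an E-box (CAGCTG) or a homeodomain core (TAATTA). Of 27305 promoters of the same length, 12.0%, 44.5%, 17.7% and 5.00% held these motifs.
DCX: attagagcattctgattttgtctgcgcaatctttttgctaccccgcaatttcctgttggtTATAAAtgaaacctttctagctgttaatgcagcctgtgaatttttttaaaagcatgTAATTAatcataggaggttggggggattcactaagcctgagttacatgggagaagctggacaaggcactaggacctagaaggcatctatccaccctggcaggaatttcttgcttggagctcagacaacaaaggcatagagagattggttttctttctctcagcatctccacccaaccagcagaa
DCLK1: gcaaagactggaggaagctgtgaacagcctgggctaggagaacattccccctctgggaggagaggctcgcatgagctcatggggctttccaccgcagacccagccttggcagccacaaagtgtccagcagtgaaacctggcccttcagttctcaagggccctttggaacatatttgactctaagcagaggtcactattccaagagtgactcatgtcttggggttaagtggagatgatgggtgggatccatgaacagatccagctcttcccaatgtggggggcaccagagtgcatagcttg
ANK2: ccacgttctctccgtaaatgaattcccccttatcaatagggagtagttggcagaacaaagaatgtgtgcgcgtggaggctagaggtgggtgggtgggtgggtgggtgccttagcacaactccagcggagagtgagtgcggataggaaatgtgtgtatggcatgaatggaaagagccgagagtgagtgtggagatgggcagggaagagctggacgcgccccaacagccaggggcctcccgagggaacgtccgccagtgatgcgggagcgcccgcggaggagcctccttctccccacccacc
ANK3: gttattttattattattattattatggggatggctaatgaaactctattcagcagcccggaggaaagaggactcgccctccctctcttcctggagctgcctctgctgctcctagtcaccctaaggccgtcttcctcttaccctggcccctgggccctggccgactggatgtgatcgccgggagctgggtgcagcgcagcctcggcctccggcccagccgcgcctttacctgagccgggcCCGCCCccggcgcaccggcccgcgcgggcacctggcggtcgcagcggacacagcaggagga
The DCX window held 1 TATA box and 1 homeodomain core, the ANK3 window held 1 GC box, and those of DCLK1 and ANK2 held none of these letters. A match describes letters only and is not a shown binding site. The GC content was 43.0% for DCX, 54.3% for DCLK1, 60.0% for ANK2 and 64.0% for ANK3, against a median of 58.3% over all promoters. Each of these genes has 3 to 10 starts in the table, and which start was used in these cells was not measured. The ANK2 and DCLK1 windows lie wholly upstream of the GENCODE gene models used here for lengths. Those models begin at position 112818109 for ANK2 and 36131306 for DCLK1. The motifs and GC content of these windows therefore describe the RefSeq start only. Of the 10 genes 9 matched the table, all but MAP6.

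The remaining genes of the same machinery were described from lists chosen by function, each by its counts and its median, against the mean of both controls unless stated. Each count is to be read against the shares over all features in the same comparison. These are 24.3% fallen and 23.9% risen against that mean. They are 21.8% and 21.1% against control hairpin 1, and 26.2% and 24.0% against control hairpin 2. Other microtubule-associated proteins fell in 8 and rose in 4 of 20 tested (median log2FC -0.37, and -0.27 and -0.13 against control hairpins 1 and 2). EML5 (-1.34 against control hairpin 1 and -0.66 against control hairpin 2) and EML1 (-0.86 against their mean), both of the echinoderm microtubule-associated protein-like family, and MAP7D1 (-1.35), a relative of MAP7, fell. DCLK3 fell too, with 3 and 0 counts in the knockdown libraries and 17 to 31 in the controls. The rises were EML3 (0.70), MAP9 (0.48), MAP10 (0.73) and MAP7D3 (0.34), the last not called against control hairpin 2 (0.14, adjusted p = 0.347). MAPT, which encodes tau, stood at 16.2 and 12.2 CPM under the TARDBP hairpin, 32.5 and 29.8 under control hairpin 1, and 16.6 and 14.7 under control hairpin 2. Like MAP6 it fell against control hairpin 1 (log2FC -1.13, adjusted p = 6.52e-04) and was not called against control hairpin 2 (-0.14, adjusted p = 0.494).

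Proteins of microtubule ends and severing enzymes fell in 9 and rose in 5 of 26 (median -0.11), 14 called where 48.2% of all features were. Against control hairpin 2 the list had 9 lower and 9 higher, with a median of -0.0040, and against control hairpin 1 it had 9 lower and 5 higher, with a median of -0.18. The end-binding gene MAPRE2 (log2FC -1.01), the severing enzyme gene SPAST (-0.71), the minus-end gene CAMSAP2 (-0.44) and the neuron navigator gene NAV1 (-0.42) fell. CAMSAP2 was not called against control hairpin 2 (-0.13, adjusted p = 0.239), nor NAV1 against control hairpin 1 (-0.07, adjusted p = 0.541). CLIP4 (0.60), SLAIN1 (0.51), NAV2 (0.41), KATNAL2 (0.39) and CLIP3 (0.34) rose, and CLIP3 had a log2FC of -0.30 against control hairpin 1 and 0.98 against control hairpin 2. Kinases that phosphorylate these proteins, listed together with the activator genes CDK5R1 and CDK5R2, fell in 5 of 15. Their median was -0.21, and -0.24 and -0.14 against control hairpins 1 and 2, and TTBK2 rose against control hairpin 2. The falls were CDK5R1 (-1.30) and CDK5R2 (-1.29), the activators of the neuronal kinase CDK5, CDK5 itself (-0.38), the tau tubulin kinase gene TTBK1 (-0.67) and MAPK8 (-0.52). CDK5R1 fell against each control (-1.25 and -1.36), as did CDK5R2 (-1.37 and -1.21). CDK5 was not called against control hairpin 1 (-0.19, adjusted p = 0.305).

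The list of ankyrin partners held spectrins, adducins, protein 4.1 genes, adhesion molecules and channels, with ANK1, TRIM46 and DLG2. These genes fell in 12 and rose in 2 of 24 tested (median -0.38). They were 13 lower and 2 higher against control hairpin 1 (median -0.45), and 9 lower and 3 higher against control hairpin 2 (median -0.13). The adducin genes ADD3 (log2FC -1.26) and ADD2 (-1.43), whose products cap actin in the spectrin skeleton, and EPB41L1 (-0.98), a gene of the protein 4.1 family, fell. These 3 fell against each control hairpin. The adhesion molecule gene NRCAM (0.49) and the sodium channel gene SCN2A (0.39) rose, the latter not called against control hairpin 1 (0.08, adjusted p = 0.661). Enzymes that modify tubulin fell in 5 and rose in 5 of 18 (median -0.19). Against control hairpin 1 the calls were 7 lower and 3 higher (median -0.22), and against control hairpin 2 they were 3 lower and 7 higher (median 0.05). VASH1, a tubulin detyrosinating enzyme gene (-1.45), TTLL12 (-0.93), TTLL5 (-0.45), VASH2 (-0.56) and TTLL11 (-0.51) fell. VASH2 was not called against control hairpin 1 (-0.05, adjusted p = 0.810), TTLL5 not against control hairpin 2 (-0.24, adjusted p = 0.124), and TTLL11 against neither (adjusted p = 0.0642 and 0.0874). The deglutamylase genes AGBL2 (2.03) and AGBL5 (0.49), the glutamylase genes TTLL7 (0.64) and TTLL1 (0.60), and TTL (0.30), the tubulin tyrosine ligase gene, rose. AGBL5 (0.25, adjusted p = 0.0703) and TTL (0.14, adjusted p = 0.291) were not called against control hairpin 1.

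**Figure D4:**
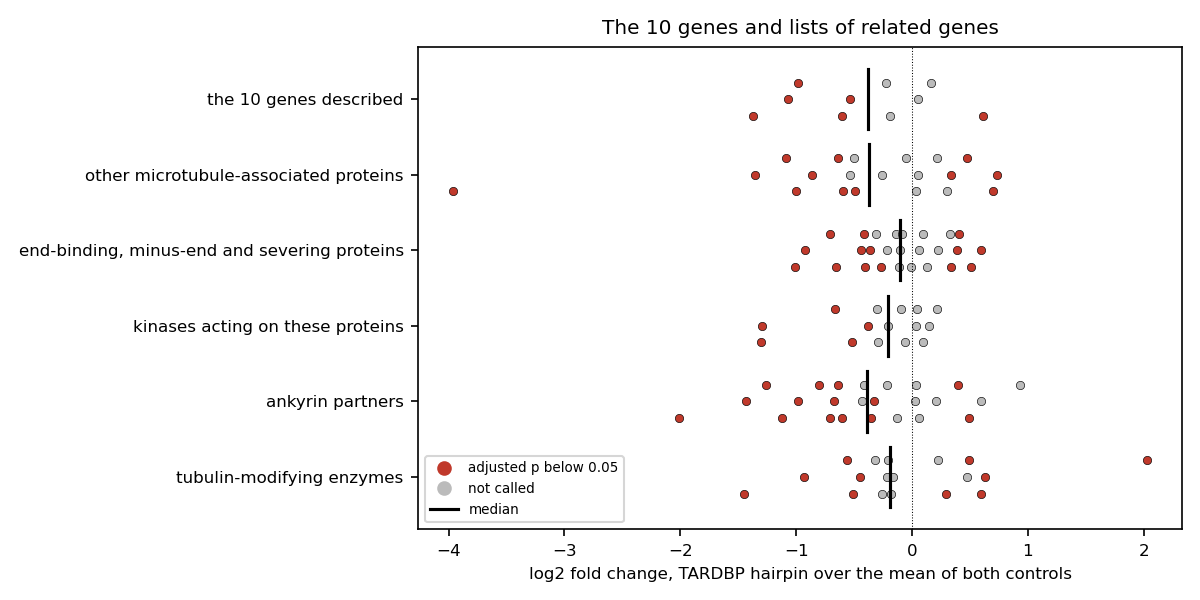
Log2FC against the mean of both controls (horizontal axis) of the 10 genes and of each tested gene in the related lists, red where the adjusted p was below 0.05, with the median of each list as a black line. All medians lie below 0 in this comparison, from -0.11 to -0.38, though not against control hairpin 2 alone, while single genes of most lists lie on either side.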

How the data were processed

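The deposited files hold raw counts, 1 file per library, per gene symbol and per repeat family, per the file headers. Build hg19, STAR 2.5.2b and bcl2fastq are named in the submitters' processing notes as used by the authors. How reads were assigned to features (tool, annotation, strand, multiple matches) is not stated there. Cells were infected with lentivirus and selected with puromycin, ribosomal RNA was depleted and libraries were strand-specific, per the labels' protocols.

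Counts of 27961 genes and 992 repeat families were fitted together in R 4.3.3 with edgeR 4.0.16 (filterByExpr with a minimum count of 10 and a minimum total of 15, TMM, quasi-likelihood test, 3 hairpin groups in 1 fit, 3 residual and 5.41 prior degrees of freedom). Benjamini-Hochberg adjustment ran over all 17163 features tested. Intervals at 95% use the SE, computed as the absolute log2FC over the square root of F. The fit was also run on counts simulated from its own means and spreads, with few features changed. That run cannot show the error rate in these data, where many more features were called. Alternatives were other scalings and filters, DESeq2 1.42.0, genes only, controls as 1 group, a test against 1.5-fold, a replicate block and leaving out each library. The 10 genes and the lists were chosen with earlier results of these data known. All 10 genes were named, and of each list up to 4 called genes with the lowest p per direction, with all of a count of 5 or fewer; MAPT and, for marker lists, sums over all genes were given beyond this rule, MAPT after its values were seen. One gene that the rule names is not reported here. Pairs for count ratios and sequence searches were also chosen after values were seen. Libraries of a hairpin differed beyond sampling noise (chi-square per degree of freedom 19.5 to 22.6), so none was counted as a duplicate. Coordinates and sequences are from GRCh38 (GENCODE release 29, RefSeq GRCh38.p14), not the hg19 of the counts.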

Additional observations from a re-analysis of the deposited data

How the results depend on the processing

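The falls of DCX, DCLK1 and ANK2 against each control hairpin and their mean stayed past the threshold under every alternative run. The number of the 10 genes called against the mean of both controls was 6, and 3 with the controls as 1 group or against a 1.5-fold change. Tested against 1.5-fold, it was 4 instead of 8 against control hairpin 1, 3 instead of 5 against control hairpin 2 and 0 instead of 4 between the control hairpins. Leaving out 1 library at a time gave 5 to 7, 6 to 8, 3 to 5 and 2 to 5 in these comparisons. An arm left with 1 library is assumed there to vary like the others. With the controls as 1 group, all features called numbered 1054 higher and 1518 lower. Tested against 1.5-fold they numbered 1027 and 1435 against the control mean, 1241 and 1381 against control hairpin 1, 1108 and 1873 against control hairpin 2, and 1484 and 626 between the controls. All features called higher fell to 2622 without knockdown replicate 2 against the control mean, to 2337 without control hairpin 1 replicate 1 against that control, and to 2151 without control hairpin 2 replicate 2 against that control. Between the controls they were 2472 higher and 1856 lower without control hairpin 1 replicate 1, and 1661 lower without control hairpin 2 replicate 2.

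Upper quartile scaling moved the median log2FC of all genes up by 0.12 against the control mean, 0.10 against control hairpin 1 and 0.15 against control hairpin 2, and the share of calls that were higher to 63.4% (5678 higher and 3284 lower, against 4102 and 4167), 59.8% (4575 and 3079, against 3615 and 3749) and 61.4% (5588 and 3515, against 4120 and 4498). Under it MAP1B reversed to 0.069 against control hairpin 2 and MAP2 to 0.015 against control hairpin 1, neither called. MAP4, uncalled throughout, reversed to -0.0060 against the control mean with total counts only. Against control hairpin 2 it reversed to -0.0028 with DESeq2 size factors, -0.025 with total counts and -0.012 in DESeq2, and lay between -0.011 and 0.013 when single libraries were left out (-0.0076 and -0.011 without control hairpin 2 replicate 1 or 2). MAP2 against control hairpin 1 lay between -0.21 and 0.031 in such fits, the latter without control hairpin 1 replicate 1. MAP6 against control hairpin 2 lay between -0.36 and 0.050, reversed to 0.025 without knockdown replicate 2 and to 0.050 without control hairpin 2 replicate 1. ANK2 between the controls lay between -0.19 and 0.043, the latter without control hairpin 2 replicate 2. None of the reversed values was called and the cause was not tested.

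Replicate numbers are shared between hairpins, but the labels tie them to no batch. Deviations of same-numbered libraries correlated with r = 0.40 between the control hairpins and -0.33 and -0.35 between the TARDBP hairpin and each control, across features, so the numbers were not taken to pair the libraries. Even so, DCX, MAP1A, MAP6 and ANK2 were higher in replicate 1 than in replicate 2 under each hairpin, and DCLK1 was lower. The other genes of the 10 kept no such order. A replicate block gave 6, 8, 4 and 4 of the 10 genes called. Of all 17163 features tested, it called 3741 higher and 3902 lower against the control mean. The counts were 3270 and 3475 against control hairpin 1, 3729 and 4244 against control hairpin 2, and 3625 and 3045 between the controls. Against the control mean the block gave DCX an SE of 0.105 instead of 0.162, and MAP1B one of 0.0949 instead of 0.0831. With it the calls of ANK3 against control hairpin 2 (adjusted p = 0.0646) and of MAP1B between the controls (0.0743) were lost, and MAP1A was called between the controls (-0.29, adjusted p = 0.0443, edgeR).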
